A study of Mus musculus with 288 samples.

Results

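Daily rhythms of gene expression were compared between 2 organs of the mouse, the lung and the heart. The 48 arrays used were those labelled lung (24) and heart (24), out of 288 arrays that cover 12 tissues, and the organs were matched by the circadian time given for each array. Both organs came from C57/BL6 mice kept for 1 week in 12 h of light and 12 h of darkness and then in darkness throughout, with no genetic change or drug, and neither age nor sex is given in the labels used here. Every array held RNA pooled from 3 mice, and arrays follow each other by 2 h from CT18 to CT64, where CT is circadian time and CT0 is subjective dawn. There is 1 array per organ and time and no replicate, so the error of each wave is the scatter of the pools around it. The labels do not say which chambers of the heart were taken, nor whether lung and heart of a given time came from the same animals.

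The clock of every cell is a loop of transcription. The proteins of Arntl (BMAL1) and Clock bind E-box sequences and switch on the Per, Cry and Nr1d genes, PER and CRY proteins then shut their own genes off, and the REV-ERB receptors made from Nr1d1 and Nr1d2 repress Arntl through sequences called ROR elements. Lung and heart share this clock, and both hold many endothelial cells, which line blood vessels and carry genes such as Pecam1, Cdh5 and Kdr. They differ in most other cells: alveolar cells, airway cells and resident leukocytes in the lung, and contracting cardiomyocytes in the heart.

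Values are the deposited array intensities on the log2 scale. Because the deposited values may have been normalized within each tissue, genes were compared between organs by their waves. Levels were compared only for cell type markers, as a check of the labels. A wave is the 24 h cosine fitted to the 24 arrays of an organ, its size is the fold between its fitted peak and trough, and its peak is given in CT hours within 1 day. A gene is called rhythmic at an adjusted p under 0.05 in limma's moderated F test with Benjamini-Hochberg adjustment over all 19938 genes. The difference between organs was tested itself, by the terms for organ and wave in 1 fit to the 48 arrays. Array medians lay between 98.6 and 103.5 in lung and between 95.9 and 103.0 in heart. Alveolar type 2 markers had a mean log2 intensity of 11.65 in lung and 5.97 in heart, and cardiomyocyte markers 13.56 in heart and 8.07 in lung, so each organ carried its own markers. The array of the heart at CT26 stood apart, since its mean over 12 hepatocyte markers was 10.63 against a median of 6.50 over the heart arrays, and the lung array of that time had 8.25 against 6.65. In heart the mean of 6 atrial markers varied from 6.96 at CT24 to 8.81 at CT40, and in lung the mean of 12 cardiomyocyte markers from 7.76 at CT58 to 8.48 at CT28. The lung array of CT38 had the lowest median correlation with the other lung arrays (0.9952), and no setting left out that time alone. It also held the lowest lung means of the endothelial, B cell, T cell and fibroblast markers. No marker had an intensity of 0 in either organ. In bulk RNA, fewer cells of a type and less RNA per cell cannot be told apart.

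Lung had 4176 rhythmic genes, 20.9% of those tested, and heart 1723, 8.64%. Of these, 788 genes (3.95% of all genes) were called in both, which is 18.9% of the lung calls and 45.7% of the heart calls. The rhythm differed between the organs for 2268 genes (11.4%). A rhythm in lung, none called in heart and a difference between them was found for 1105 genes (5.54%), of which 709 had a mean above the heart median and so were well measured there. The opposite case, a heart rhythm not called in lung by the same rule, held for 518 genes (2.60%), of which 386 lay above the lung median. Another 2283 genes were called in lung alone and 417 in heart alone without a called difference, so for these a rhythm in only 1 organ was not shown. The scatter around the waves was larger in heart, with a median SD of 0.101 on the log2 scale against 0.0807 in lung. At an unadjusted p under 0.05, 32.3% of all genes passed in lung, 20.6% in heart and 10.4% in both.

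Peaks fell at different hours in the 2 organs. Of the rhythmic genes of lung, 36.2% peaked from CT6 to CT12 and 16.3% from CT18 to CT24, whereas in heart 21.5% and 32.1% did. Among the 788 genes called in both, the lung peak came earlier in 505 and later in 283, with a median difference of -1.25 h (lung minus heart) and quartiles of -3.63 and 1.09 h. The peaks lay within 2 h of each other in 320 genes (40.6%) and within 4 h in 529 (67.1%). Waves of these shared genes were larger in heart in 529 and in lung in 259, with median folds of 1.23 and 1.18. These genes had to be called in heart, where the scatter was larger, so this direction is only a description. Over all genes the median fold was 1.07 in each organ. For 397 shared genes with no called difference, the 95% interval of the peak difference had a median width of 2.39 h to each side. Equal peaks were therefore not shown for these genes.

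**Figure D1:**
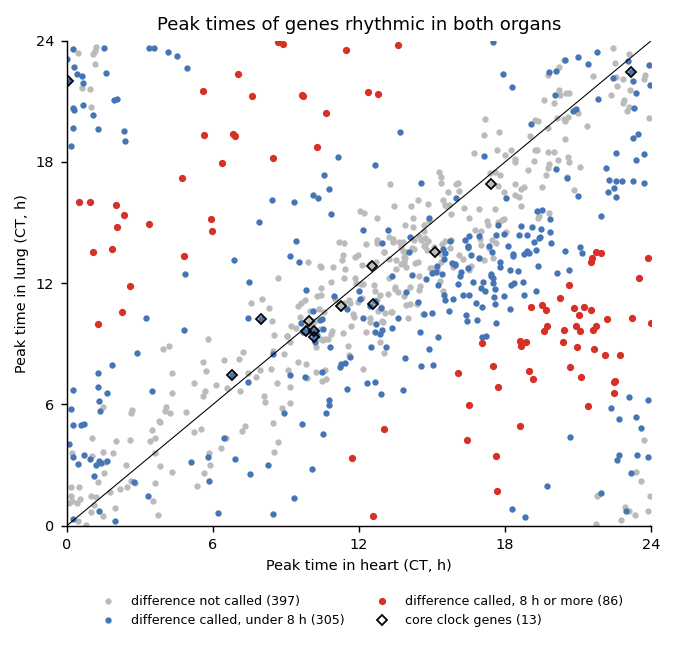
Peak time in heart (horizontal axis, CT hours) against peak time in lung (vertical axis, CT hours) for the 788 genes rhythmic in both organs, with the diagonal marking equal times. Most points lie near or below the diagonal, where lung peaks earlier, and the 86 red points mark genes whose peaks lay at least 8 h apart with a called difference; diamonds mark the 13 core clock genes.

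Lung and heart both ran the core clock: each of its 13 measured genes was called in both organs. The difference was called for 7 of them, beside 1.96% of all genes that were called in both and differed. As all 13 were called in both organs, the matching share is 391 of the 788 genes called in both. The 7 of 13 lay near that share. Arntl, the activator, ranged in lung from 5.59 at CT58 through a median of 7.64 to 8.81 at CT22, and in heart from 5.80 at CT60 through 7.33 to 8.76 at CT48. Both organs were thus high around subjective dawn and low around dusk on both days. Its fold was 9.37 (95% interval 7.71 to 11.4) in lung and 7.67 (6.51 to 9.03) in heart, and its peak came 0.76 h earlier in lung (difference -0.761 h, interval -1.23 to -0.294; adjusted p of the difference 0.0321). That call was lost without the CT40 arrays (adjusted p = 0.0556) and with endothelial markers as a covariate (0.191). Clock, its partner, peaked at CT22 in lung and CT0.022 in heart, a difference of -2.01 h (-2.81 to -1.21; adjusted p = 0.00136), with like folds of 1.60 and 1.65.

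Among the clock genes whose wave was the larger in lung, the REV-ERB receptors stood furthest apart. Nr1d1 in lung ran from 6.70 at CT20 through a median of 9.87 to 11.43 at CT54, and in heart from 8.80 at CT42 through 10.07 to 11.52 at CT54. The highest arrays were therefore those of the same hour, while the lung trough went much further below the organ's median. The fold was 22 (16.3 to 29.6) in lung and 5.90 (4.98 to 7.0) in heart, a ratio of 3.72 (2.61 to 5.31; adjusted p = 7.85e-07). Its relative Nr1d2 varied 6.71-fold in lung and 2.26-fold in heart (ratio 2.97, 2.30 to 3.83; adjusted p = 5.6e-08). Bhlhe41, a repressor that competes for E-boxes, varied 4.24-fold and 1.93-fold (ratio 2.2, 1.71 to 2.82; adjusted p = 2.1e-05), and Bhlhe40 peaked 2.25 h later in lung (0.874 to 3.62; adjusted p = 0.0441).

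Ciart, a repressor of the activator pair, went the other way. In lung it ran from 8.36 at CT26 through a median of 8.67 to 9.63 at CT56, and in heart from 6.13 at CT50 through 6.89 to 9.54 at CT58. The fold was 1.78 (1.44 to 2.2) in lung and 8.13 (5.43 to 12.2) in heart, with peaks at CT9.65 and CT9.81 (ratio 0.219, 0.136 to 0.351; adjusted p = 2.99e-05). A second probe set of the gene gave 1.99-fold and 7.08-fold. The ratio interval lay above 1 for 6 of the 13 core genes and below 1 for Ciart alone.

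The Period and Cryptochrome genes showed no called difference. Per1 varied 2.80-fold in lung and 2.86-fold in heart with a peak difference of 0.221 h (-1.22 to 1.66), Per2 3.79-fold and 3.42-fold with 0.300 h (-0.418 to 1.02), and Per3 4.83-fold and 3.55-fold with -0.357 h (-0.908 to 0.194). Cry1 peaked at CT16.9 and CT17.4, and the difference of -0.515 h had an interval from -1.93 to 0.899. Cry2 peaked at CT11.0 and CT12.6, with an interval from -2.67 to -0.535 h but an adjusted p of 0.10. Rora, which activates through ROR elements, varied 1.29-fold and 1.14-fold (adjusted p of the difference 0.0750), and its heart call was lost without the CT26 arrays (adjusted p = 0.0705) and without those of CT40 (0.0920).

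**Figure D2:**
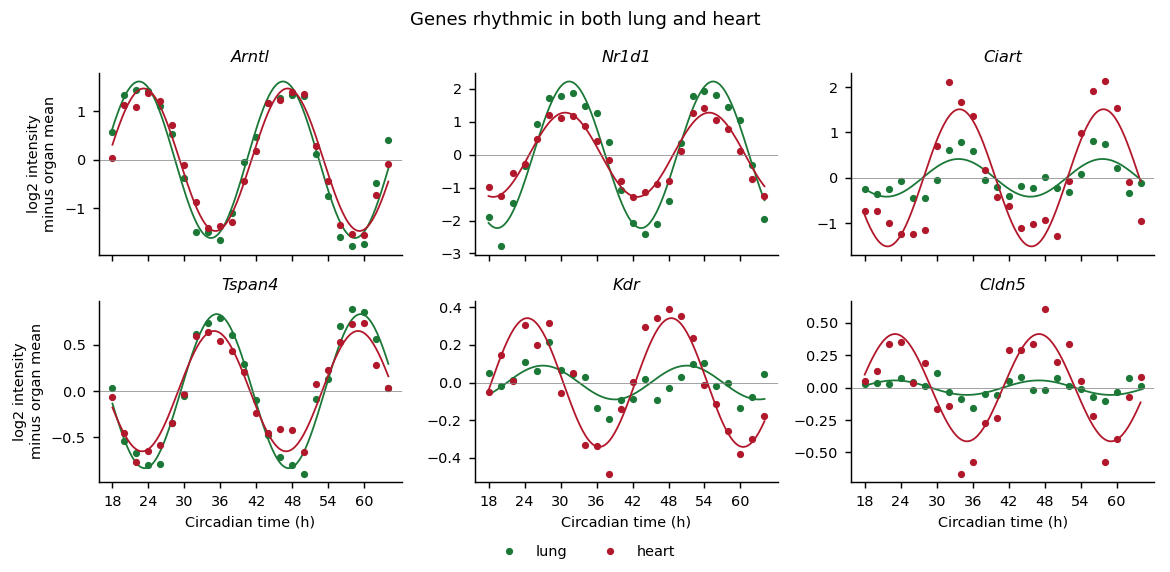
Log2 intensity minus the organ mean (vertical axes) against circadian time in hours (horizontal axes) for 6 genes rhythmic in both organs, with lung in green and heart in red, points for single arrays and lines for the fitted 24 h waves. Arntl and Tspan4 swing by several fold in both organs (9.37 and 7.67, 3.18 and 2.47), Nr1d1 swings 22-fold in lung and 5.90-fold in heart, and Ciart, Kdr and Cldn5 swing more in heart.

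Of 13 measured clock output genes, which carry the clock to other genes, 12 were rhythmic in both organs, beside 3.95% of all genes. Of these 12, 7 differed, beside 391 of the 788 genes called in both. The lung peak was the earlier in 8 of the 12, near the share of 505 in the 788. Dbp, a D-box activator, ran in lung from 6.4 at CT48 through a median of 8.15 to 10.26 at CT56 and in heart from 7.50 at CT50 through 9.26 to 10.73 at CT58. It was high in the late subjective day and low at dawn in both organs, and varied 14.8-fold (11.5 to 19.1) in lung and 8.03-fold (6.19 to 10.4) in heart, 1.06 h earlier in lung (difference -1.06 h, -1.68 to -0.450; adjusted p = 0.0023). Its relatives Tef and Hlf also peaked earlier in lung, by -1.51 h (-2.15 to -0.871; adjusted p = 0.000413) and -0.821 h (-1.51 to -0.135; adjusted p = 0.000604). Leo1, a member of a complex that travels with RNA polymerase, peaked at CT21.8 in lung and CT24.0 in heart (difference -2.15 h, -3.17 to -1.12; adjusted p = 0.00119). Nampt, the enzyme of NAD salvage, peaked at CT13.0 and CT15.8 (adjusted p = 0.0250), and Wee1, a mitotic kinase, at CT12.4 and CT13.3 (adjusted p = 0.0472). The calls for Nampt and Wee1 were lost without the CT40 arrays (adjusted p = 0.0526 and 0.0616). Nfil3, which competes with Dbp for D-boxes, varied 3.07-fold and 2.84-fold with no called difference (adjusted p = 0.411). For Usp2, Klf9, Coq10b and Tsc22d3, all rhythmic in both organs, the adjusted p of the difference lay between 0.345 and 0.736. Pdzrn3, a ubiquitin ligase, peaked at CT1.95 in lung and CT19.7 in heart, 6.23 h apart (3.87 to 8.59; adjusted p = 0.0023). Klf10 was called in neither organ, with 1.14-fold in lung and 1.15-fold in heart.

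Promoter sequences of RefSeq, on build GRCm38.p6 and from 250 bases before to 50 bases after each annotated start, were searched on both strands for the E-box CACGTG, the ROR element TAGGTCA and the D-box TTATGTAA. Where motifs overlapped, each was counted. The E-box was found in 7.15% of 32851 promoters, the ROR element in 2.61% and the D-box in 0.938%. By gene, the E-box was found in 9.50% of 15614 measured genes with a promoter, 14.2% of 618 genes rhythmic in both organs, 13.7% of 875 with a lung rhythm particular to it by the rule above, 9.40% of 415 of heart, 8.22% of 73 with opposite peaks and 27.3% of 22 clock and clock output genes. The ROR element was found in 2.63% of measured genes, 2.43% of those rhythmic in both and 13.6% of clock and clock output genes. For the D-box these shares were 0.999%, 0.647% and 9.09%. In genes particular to lung, particular to heart and opposite, the ROR element was found in 2.97%, 2.41% and 0.0%. The D-box was found there in 1.37%, 0.482% and 0.0%. All these shares describe letters in a window and say nothing of binding. Ciart is shown first because 3 E-boxes lie within 118 bases of its promoter, at positions -116, -58 and -44 from the start, at chr3:95882247-95882364. Tspan4 (chr7:141476289-141476374) and Per1 (chr11:69098743-69098828) had waves of over 2-fold in both organs, Leo1 (chr9:75441421-75441507) and Nfil3 (chr13:52981040-52981091) hold ROR elements and peaked near dawn, and Adam19 (chr11:46054332-46054417) and Pfkfb2 (chr1:130715822-130715883) hold an E-box although their waves differed between the organs. Each is written 5′ to 3′ on the gene's strand, with the motif in capitals; Ciart, Nfil3 and Pfkfb2 lie on the minus strand, and the motif of Nfil3 reads on the strand opposite to the gene.
Ciart: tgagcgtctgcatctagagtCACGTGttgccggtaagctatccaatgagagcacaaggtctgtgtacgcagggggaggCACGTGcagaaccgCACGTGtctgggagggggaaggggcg
Tspan4: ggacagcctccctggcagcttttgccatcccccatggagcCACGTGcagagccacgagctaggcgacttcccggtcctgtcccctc
Per1: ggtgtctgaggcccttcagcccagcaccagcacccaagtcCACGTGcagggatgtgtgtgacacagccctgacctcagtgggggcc
Leo1: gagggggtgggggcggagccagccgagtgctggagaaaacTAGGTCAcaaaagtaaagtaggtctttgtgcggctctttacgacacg
Nfil3: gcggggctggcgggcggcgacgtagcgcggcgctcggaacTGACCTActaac
Adam19: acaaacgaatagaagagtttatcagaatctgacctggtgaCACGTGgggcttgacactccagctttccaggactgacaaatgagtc
Pfkfb2: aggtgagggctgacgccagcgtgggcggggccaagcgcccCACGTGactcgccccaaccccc

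Outside the clock lists, Tspan4, a tetraspanin of the cell membrane, had the largest wave that both organs shared, ranked by the smaller of its 2 folds. It ran in lung from 8.95 at CT50 through a median of 9.83 to 10.74 at CT58 and in heart from 8.32 at CT22 through 9.09 to 9.83 at CT60, high around CT11 on both days and low around CT23. Its fold was 3.18 (2.89 to 3.50) in lung and 2.47 (2.21 to 2.75) in heart, and the peaks at CT11.4 and CT11.0 differed by 0.431 h (-0.126 to 0.988), so the called difference (adjusted p = 0.0221) was one of size, and it was lost with endothelial markers as a covariate (0.517). Zbtb16, a zinc finger factor induced by glucocorticoids, varied 2.22-fold and 2.61-fold with peaks at CT11.8 and CT14.1, and the difference was not called (adjusted p = 0.333). Ppp1r3c, which targets a phosphatase to glycogen, varied 2.08-fold in lung and 1.88-fold in heart but peaked 2.65 h later in lung (1.56 to 3.74; adjusted p = 0.00182). Slc46a3, a lysosomal transporter, had folds of 1.58 and 1.64 with a lung peak 2.35 h earlier (-2.35 h, -3.26 to -1.44; adjusted p = 0.00101). For Cyp26b1, which breaks down retinoic acid, Fam107a, a stress-responsive actin binder, and Ccbe1, a lymphatic growth gene, the difference was not called, and their smaller fold of the 2 organs was 1.73, 1.61 and 1.53.

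Genes that mark endothelial cells had small waves, centred on different hours in the 2 organs. Of 32 measured members of the endothelial list, 23 were rhythmic in lung, 11 in heart and 9 in both, beside 20.9%, 8.64% and 3.95% of all genes, and 7 were called in neither. The median fold over the list was 1.09 in lung and 1.12 in heart, beside 1.07 over all genes in each. Lung waves of these genes gathered in the first part of the day, with 15 of the 23 peaking from CT3 to CT9, against 30.9% of all genes rhythmic in lung. In heart 9 of the 11 peaked from CT18 to CT1, against 36.8% of its rhythmic genes. Neither window was planned and they differ in length, so these shares only describe where the peaks lay. The 9 shared members all had the larger fold in heart. Since they were selected by a heart call, and the scatter was larger in heart, this direction is only a description. At an unadjusted p under 0.05, 24 passed in lung, 21 in heart and 18 in both, beside 32.3%, 20.6% and 10.4% of all genes. In 1 fit to all 288 arrays 6 members were called in lung, 11 in heart and 1 in both. The counts over all 19938 genes in that fit were 1836, 1531 and 372. The difference was called for 8 members in that fit, for 14 here and for 5 with rank-based scores. Over all genes the difference was called for 969, 2268 and 894.

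Kdr, the main receptor for vascular endothelial growth factor, had a wave in both organs. In lung it ran from 10.80 at CT38 through a median of 11.02 to 11.21 at CT28, and in heart from 9.88 at CT38 through 10.36 to 10.75 at CT48. Both organs were lowest at the same array time, and the heart values spread much wider. The fold was 1.13 (1.07 to 1.2) in lung and 1.61 (1.48 to 1.74) in heart, and the lung peak at CT3.06 came 2.61 h (0.424 to 4.79) after the heart peak at CT0.455 (adjusted p of the difference 4.61e-07). Cldn5, the tight junction protein of endothelium, ran in lung from 11.54 at CT36 through 11.71 to 11.81 at CT30 and in heart from 8.21 at CT34 through 8.93 to 9.48 at CT48. Its fold was 1.08 (1.04 to 1.13) in lung and 1.78 (1.57 to 2.00) in heart, with peaks at CT23.0 and CT23.1 (adjusted p = 1.07e-06). The heart wave was the larger for both genes. The interval of the peak difference of Cldn5 was wide (-4.61 to 4.52 h).

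Of the other 7 shared members, the difference was called for 4. Rhoj, a small GTPase of endothelium, varied 1.24-fold in lung and 1.41-fold in heart, 1.60 h earlier in lung (-1.60 h, -2.81 to -0.387; adjusted p = 0.00836). Flt1, a decoy receptor for the same growth factor, varied 1.09-fold and 1.25-fold (ratio 0.870, 0.808 to 0.938; adjusted p = 0.0135), with peaks at CT14.1 and CT15.7 that differed by -1.66 h (-4.29 to 0.979). For Cdh5 (VE-cadherin, 1.09-fold and 1.17-fold), Tek (the angiopoietin receptor, 1.06-fold and 1.19-fold) and Sox18 (a factor of vessel identity, 1.15-fold and 1.24-fold) the difference was not called, with adjusted p of 0.117, 0.102 and 0.618, although the interval of the peak difference of Cdh5 (0.284 to 6.54 h) and of the fold ratio of Tek (0.820 to 0.968) lay to 1 side. Sox18 lost its lung call without the CT26 arrays (adjusted p = 0.0624). Pecam1, an adhesion protein of all endothelium, ran in lung from 11.25 at CT40 through 11.35 to 11.44 at CT54 and in heart from 9.998 at CT28 through 10.11 to 10.49 at CT46. It peaked at CT4.38 in lung and CT20.7 in heart, 7.72 h apart (5.21 to 10.2; adjusted p = 2.35e-05). Tie1, an orphan receptor kinase, peaked at CT7.15 and CT22.5, 8.64 h apart (5.72 to 11.6; adjusted p = 0.00125), with folds of 1.1 and 1.16. The heart call of Tie1 was lost without the CT40 arrays (adjusted p = 0.0561).

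**Figure D3:**
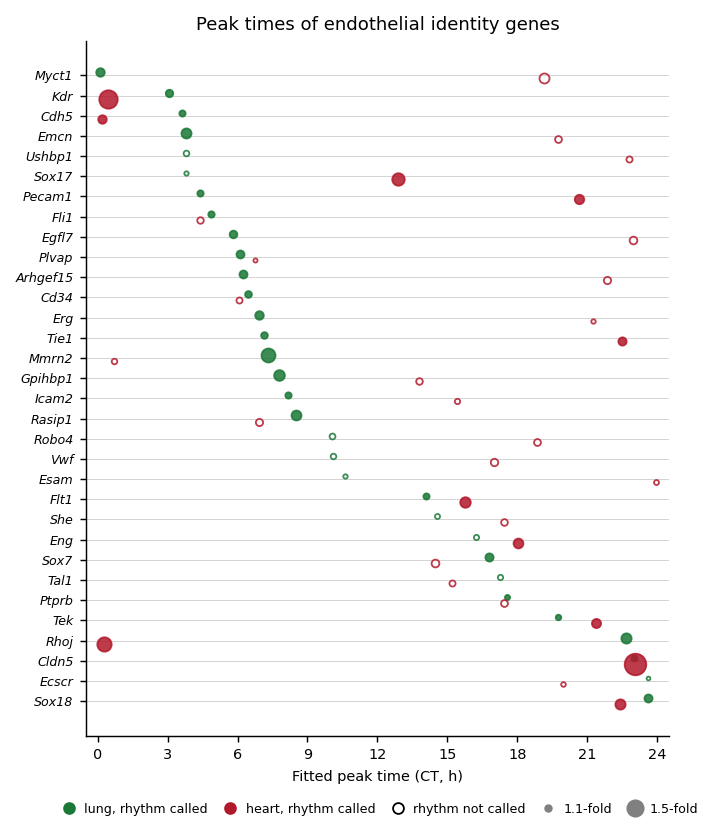
Fitted peak time (horizontal axis, CT hours) of the 32 endothelial genes (vertical axis, ordered by lung peak) in lung (green) and heart (red), with filled symbols for called rhythms, open symbols for rhythms not called and symbol area growing with the fold. Of 23 filled green symbols 15 lie between CT3 and CT9, and 9 of 11 filled red symbols lie between CT18 and CT1.

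A rhythm called in lung and not in heart, with a called difference, was found for 6 endothelial members, beside 5.54% of all genes. Mmrn2, a matrix protein of vessel walls, ran in lung from 8.75 at CT22 through a median of 8.94 to 9.35 at CT54 and in heart from 8.52 at CT20 through 8.74 to 8.92 at CT46. Its fold was 1.39 (1.29 to 1.5) in lung and 1.07 (1.0 to 1.16) in heart (adjusted p of the difference 9.7e-05). The others were Emcn, a surface sialomucin (1.23-fold and 1.11-fold; 0.000217), Gpihbp1, which carries lipoprotein lipase to the capillary lumen (1.26-fold and 1.1-fold; 0.00356), Arhgef15 (1.15-fold and 1.12-fold; 0.00337), Erg (1.17-fold and 1.03-fold; 0.0201) and Egfl7 (1.14-fold and 1.14-fold; 0.0330). For Arhgef15 and Egfl7 the folds were nearly the same, so these calls rest on the fitted hours, which in heart belong to waves that were not called. The fitted peaks of Emcn lay 8.02 h apart (5.22 to 10.8). In heart Emcn, Arhgef15 and Egfl7 had an unadjusted p of 0.0339, 0.0306 and 0.0405 in limma's F test. That heart has no rhythm in these genes was therefore not shown. In heart, Sox17, a factor of arterial endothelium, varied 1.33-fold (1.21 to 1.46) against 1.02-fold in lung (adjusted p = 0.00055), and Eng, a coreceptor for transforming growth factor beta, 1.22-fold against 1.05-fold (adjusted p = 0.0455).

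The endothelial markers as a whole moved too. Of 12 markers, 9 were called in lung and 6 in heart, beside 20.9% and 8.64% of all genes. Their mean ran from 10.66 at CT38 to 10.79 at CT26 in lung and from 9.50 at CT58 to 9.84 at CT46 in heart. Its fitted fold was 1.06 with a peak at CT4.34 in lung and 1.16 with a peak at CT22.2 in heart. With this mean as a covariate, 13 endothelial members were called in lung, 11 in heart and 6 in both. Over all genes 2682, 1740 and 544 were called. In that fit Kdr was no longer called in lung (adjusted p = 0.404), Pecam1 in neither organ (0.155 in lung and 0.142 in heart), and the difference of Mmrn2 was lost (0.288), while that of Kdr and Cldn5 stayed called (0.0105 and 4.09e-05). With the means of muscle markers as covariates, the heart calls of Cdh5 and Tie1 (adjusted p = 0.0838 and 0.0730) and the lung calls of Flt1 and Tek (0.0915 and 0.0510) were lost. The endothelial covariate is itself made of list members, and the part of cell number in these waves was not tested.

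Of 30 angiogenic ligands and receptors, 15 were rhythmic in lung, 8 in heart and 3 in both, beside 20.9%, 8.64% and 3.95% of all genes. The difference was called for 13, beside 11.4% of all genes. At an unadjusted p under 0.05, 19, 21 and 12 passed, beside 32.3%, 20.6% and 10.4% of all genes. Vegfa, the growth factor that binds Kdr, was flat in lung, from 11.60 at CT26 through a median of 11.66 to 11.72 at CT56, while in heart it ran from 10.92 at CT56 through 11.20 to 11.43 at CT46. Its fold was 1.33 (1.26 to 1.41) in heart with a peak at CT20.7, against 1.01 (1.0 to 1.05) in lung, and the difference was called (adjusted p = 3.28e-08). Aplnr, the apelin receptor, was rhythmic in both, with folds of 1.43 and 1.56 and a lung peak 2.35 h later (1.12 to 3.58; adjusted p = 0.0136).

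Of 23 genes of vascular tone, 12 were rhythmic in lung, 11 in heart and 6 in both, beside the same shares of all genes. The difference was called for 5, beside 11.4% of all genes. At an unadjusted p under 0.05, 15, 15 and 12 passed, beside 32.3%, 20.6% and 10.4% of all genes. Adm, the vasodilator adrenomedullin, ran in lung from 6.4 at CT34 through a median of 7.33 to 8.26 at CT22 and in heart from 7.12 at CT34 through 7.59 to 7.96 at CT40. Its fold was 2.73 (2.30 to 3.24) in lung and 1.34 (1.21 to 1.49) in heart, with a lung peak 3.41 h later (1.48 to 5.35; adjusted p = 1.13e-07). Pik3r1, a regulatory subunit of phosphoinositide 3-kinase, went the other way with 1.1-fold in lung and 1.56-fold in heart (ratio 0.709, 0.656 to 0.767; adjusted p = 8.39e-09). Ptgis, the prostacyclin synthase, and Tns2, a focal adhesion protein, had no called difference, with 1.27-fold and 1.32-fold for Ptgis and 1.34-fold and 1.30-fold for Tns2, with peak differences of -0.599 h (-1.96 to 0.762) and 0.650 h (-0.702 to 2.00).

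Of 15 clotting genes, 6 were rhythmic in lung, 4 in heart and 3 in both, beside 20.9%, 8.64% and 3.95% of all genes. Thbd, thrombomodulin, which turns thrombin away from clotting, varied 1.09-fold in lung and 1.31-fold in heart, 3.90 h earlier in lung (-3.90 h, -7.31 to -0.481; adjusted p = 0.00335). F3, tissue factor, which starts clotting, varied 1.47-fold and 1.18-fold (adjusted p = 0.0341), and its heart call was lost without the arrays of CT26 (adjusted p = 0.0757) or of CT40 (0.0678). Of 19 adhesion and chemokine genes, 9 were rhythmic in lung, 3 in heart and 1 in both, beside the same shares of all genes. The shared one was Vcam1, with opposite peaks given below. Cxcl15, a chemokine of lung epithelium, varied 1.52-fold (1.45 to 1.59) in lung with a peak at CT1.38. Of 12 genes of endothelial lipid uptake, 4 were called in lung, 1 in heart and none in both by limma (3 in both at an unadjusted p under 0.05). The shares of all genes were again 20.9%, 8.64% and 3.95%, and 10.4% in both at the unadjusted p.

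Among genes that were well measured in both organs, Akr1c14, an aldo-keto reductase acting on steroids, had the largest lung wave not called in heart. In lung it ran from 9.56 at CT26 through a median of 10.03 to 10.75 at CT64, and in heart from 7.0 at CT42 through 7.48 to 8.18 at CT26. Lung values were high around CT15 and low around CT3 on both days, while the highest heart value lay on the array with raised hepatocyte markers. The fold was 2.09 (1.97 to 2.22) in lung and 1.1 (1.0 to 1.31) in heart (adjusted p of the difference 8.72e-08), and without the CT26 arrays it was 2.08 and 1.04 (3.96e-08). Ahcyl2, which binds a receptor of calcium release, ran in lung from 9.97 at CT34 through 10.46 to 10.84 at CT22 and in heart from 9.07 at CT30 through 9.35 to 9.52 at CT42. It varied 1.73-fold (1.63 to 1.83) in lung and 1.05-fold in heart (adjusted p = 2.02e-09). Gpr155 varied 1.76-fold and 1.13-fold, Glipr2 1.75-fold and 1.15-fold, Igfbp3, a carrier of insulin-like growth factors, 1.64-fold and 1.04-fold, Eya1, a developmental phosphatase, 1.61-fold and 1.16-fold, Rac3, a small GTPase, 1.61-fold and 1.07-fold, and Plekha6 1.57-fold and 1.06-fold. For these 6 genes the adjusted p of the difference lay between 3.75e-10 and 0.000669, and none was called in heart. Eya1 still had an unadjusted p of 0.0114 in heart in limma's F test, with a fold interval of 1.06 to 1.28. Its fitted peaks were near each other, at CT21.2 in lung and CT21.8 in heart. That heart has no rhythm in Eya1 was therefore not shown.

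Lung waves of over 2-fold were also found in genes with heart means below the heart median. Aoc1, which degrades histamine and other diamines, ran in lung from 7.05 at CT44 through a median of 7.72 to 8.88 at CT28 and stayed between 4.72 and 5.05 in heart, with a lung fold of 2.80 (2.45 to 3.19). St6galnac3, a sialyltransferase, varied 2.18-fold, Scn3a, a sodium channel, 2.11-fold and Acoxl, a relative of acyl-CoA oxidase, 2.07-fold in lung. Their heart folds were at most 1.16.

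Of 18 surfactant and alveolar lipid genes, 10 were rhythmic in lung, 1 in heart and none in both by limma (2 in both at an unadjusted p under 0.05). Of all genes 20.9%, 8.64% and 3.95% were called, and 10.4% passed in both at the unadjusted p. The difference was called for 3, beside 11.4% of all genes. Abca3, which loads surfactant lipid into lamellar bodies, ran in lung from 10.41 at CT34 through a median of 10.60 to 10.81 at CT28, and varied 1.28-fold (1.22 to 1.33) with a peak at CT2.11. Elovl1, a fatty acid elongase, varied 1.19-fold (1.13 to 1.25) with a peak at CT5.05. The surfactant proteins themselves, named here after their values were seen, varied less: Sftpa1 1.05-fold in lung (adjusted p = 0.0141), Sftpb 1.01-fold (0.804) and Sftpc 1.02-fold (0.499). Of 16 lung transport and mucociliary genes, 10 were rhythmic in lung and 2 in heart, beside the same shares of all genes. The difference was called for 5, beside 11.4% of all genes. Scnn1a, a subunit of the epithelial sodium channel that clears fluid from the airspace, ran from 11.01 at CT26 through a median of 11.27 to 11.56 at CT62 in lung and varied 1.32-fold (1.25 to 1.39) with a peak at CT13.3. Slc26a9, an epithelial chloride channel, varied 1.48-fold (1.36 to 1.61) with a peak at CT23.3. Aqp1, the water channel of capillary endothelium, was the reverse case, with 1.07-fold in lung and 1.39-fold (1.30 to 1.48) in heart (adjusted p = 6.18e-07). Its lung wave was not called, although its unadjusted p was 0.0262 in limma's F test.

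Among leukocyte markers, those of B cells and neutrophils were mostly rhythmic in lung. Of 7 B cell markers 6 were rhythmic there, beside 20.9% of all genes. Their mean ran from 7.03 at CT38 to 8.08 at CT28 with a fitted fold of 1.40 and a peak at CT2.95. Of 8 neutrophil markers, all below the lung median, 6 were rhythmic, beside the same share of all genes. Their mean ran from 5.53 at CT40 to 6.58 at CT20 with a fold of 1.40 and a peak at CT0.597. In heart limma called 1 of the 7 and none of the 8 (1 at an unadjusted p under 0.05), beside 8.64% of all genes. At the unadjusted p, 20.6% of all genes passed in heart. Of 6 T cell and 6 alveolar macrophage markers 1 each was called in lung, near the 20.9% of all genes. The part of these cells in the other lung waves was not tested.

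In heart, Adam19, a membrane protease that shapes the heart's valves and septum, had the largest wave that was not called in lung. It ran in heart from 7.94 at CT58 through a median of 8.80 to 9.61 at CT46 and in lung from 9.0 at CT34 through 9.26 to 9.42 at CT50. Heart values were high around CT22 and low around CT10 on both days, and lung values stayed close to their mean. The fold was 2.98 (2.62 to 3.38) in heart and 1.06 (1.0 to 1.16) in lung (adjusted p of the difference 3.87e-13). Rcan1, an inhibitor of calcineurin, ran in heart from 9.43 at CT36 through 9.79 to 10.53 at CT50 and in lung from 8.85 at CT38 through 9.03 to 9.22 at CT24, and varied 1.97-fold (1.80 to 2.15) in heart and 1.09-fold in lung (adjusted p = 1.21e-10). Both peaked at night, at CT22.5 and CT22.9. Epha4, an ephrin receptor, peaked at CT0.132 with 1.75-fold, and Nup62, a nuclear pore protein, at CT20.4 with 1.58-fold. Inmt, a methyltransferase, varied 1.90-fold with a peak at CT12.2, Ier3, an early response gene, 1.88-fold at CT13.8, and Cebpb, a bZIP factor, 1.60-fold at CT12.4. Mid1ip1, a regulator of fat synthesis, varied 1.86-fold in heart and 1.06-fold in lung, but a dimmer second probe set gave 1.01-fold and 1.03-fold, so its wave rests on 1 probe set. Across these genes the lung fold was at most 1.12. Epha4 had an unadjusted p of 0.0265 in lung in limma's F test, so that lung has no rhythm in it was not shown.

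Some heart waves were in genes dim in lung. Ucp3, a mitochondrial carrier of heart and muscle, ran in heart from 8.24 at CT62 through a median of 8.95 to 9.97 at CT52 and varied 2.16-fold (1.71 to 2.73) with a peak at CT6.49, while lung stayed between 5.46 and 5.70. Fabp7, a fatty acid binding protein, varied 2.12-fold in heart with a peak at CT2.52, and Scd4, the heart's stearoyl-CoA desaturase, 2.02-fold with a peak at CT7.27. Nppb, which encodes the hormone B-type natriuretic peptide, ran in heart from 10.97 at CT60 through 11.59 to 12.29 at CT50 and varied 1.92-fold (1.64 to 2.23) with a peak at CT22.1.

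**Figure D4:**
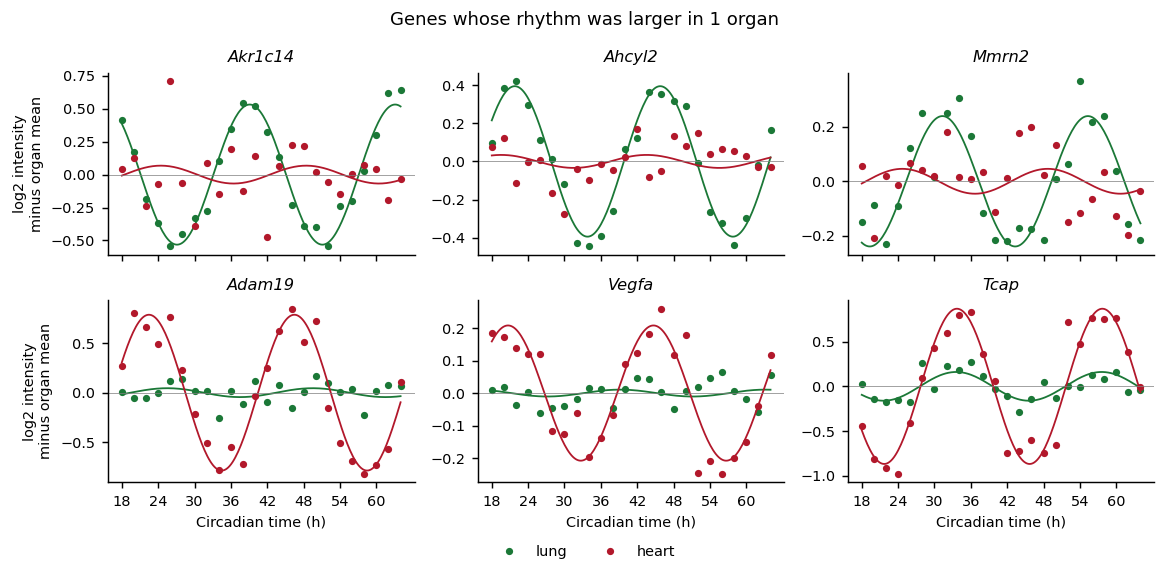
Log2 intensity minus the organ mean (vertical axes) against circadian time in hours (horizontal axes) for 3 genes with larger waves in lung (top row) and 3 with larger waves in heart (bottom row), with lung in green, heart in red, points for single arrays and lines for fitted waves. Akr1c14 swings 2.09-fold in lung and Adam19 2.98-fold in heart while the other organ stays near its mean, and the single high heart point of Akr1c14 is the CT26 array.

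Of 20 sarcomere and Z disc genes, on which contraction rests, 4 were rhythmic in heart, 5 in lung and 1 in both, beside 8.64%, 20.9% and 3.95% of all genes. The median fold over the list was 1.05 in heart and 1.19 in lung, beside 1.07 over all genes in each. Tcap, which caps titin at the Z disc, was the shared one: it ran in heart from 9.28 at CT24 through a median of 10.34 to 11.09 at CT36 and in lung from 6.10 at CT44 through 6.37 to 6.65 at CT36. It varied 3.33-fold (2.88 to 3.85) in heart and 1.25-fold (1.15 to 1.36) in lung at CT9.71 and CT9.59 (adjusted p of the difference 2.77e-11). The other 4 lung calls included Csrp3, a muscle LIM protein (1.46-fold, peak CT3.29), and Tnnt2 and Tnni3, subunits of cardiac troponin (1.25-fold and 1.34-fold, peaks at CT1.95 and CT3.74), the last 2 named after their values were seen. The lung mean of the 12 cardiomyocyte markers peaked at CT3.42 with a fold of 1.22, and 4 of them were called there (Tnnt2, Tnni3, Pln and Csrp3). In heart limma called none of the 12, and none passed at an unadjusted p under 0.05, beside 8.64% and 20.6% of all genes. Of 22 genes of excitation and calcium handling, 3 were rhythmic in heart, 8 in lung and 1, Gja1, in both, beside the same shares of all genes.

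Kcnh2, a potassium channel that repolarizes the heartbeat, ran in heart from 8.50 at CT20 through a median of 8.93 to 9.30 at CT36 and in lung from 6.80 at CT22 through 7.05 to 7.23 at CT28. It varied 1.5-fold (1.39 to 1.62) in heart and 1.11-fold in lung, both fitted at CT11.3 (adjusted p of the difference 0.000129). Gja1, the gap junction protein connexin 43, varied 1.41-fold in heart and 1.18-fold in lung at CT1.18 and CT1.42, with no called difference (adjusted p = 0.10). Gja5, connexin 40 of arteries and atria, varied 1.35-fold in lung and 1.09-fold in heart (adjusted p = 0.0385), a call lost without the CT40 arrays (0.0755).

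Of 27 measured genes of fuel use, 18 were rhythmic in lung, 10 in heart and 9 in both, beside 20.9%, 8.64% and 3.95% of all genes. The difference was called for 13, beside 11.4% of all genes. Pdk4, which holds back glucose oxidation, ran in heart from 11.91 at CT40 through a median of 12.48 to 13.12 at CT52 and in lung from 6.9 at CT18 through 7.74 to 8.45 at CT30. Its folds of 1.78 in lung and 1.60 in heart and its peaks at CT5.11 and CT3.81 did not differ by the test (adjusted p = 0.578; interval of the peak difference -0.750 to 3.35 h). Cpt1a, the gate of mitochondrial fat oxidation, varied 1.45-fold and 1.37-fold with peaks at CT6.43 and CT8.11 (adjusted p = 0.287). Dgat2, which makes triglyceride, varied 1.77-fold at CT8.74 in lung and 1.25-fold at CT14.9 in heart (adjusted p = 9.35e-07). Of 15 genes of cholesterol synthesis, 5 were rhythmic in heart, 4 in lung and 1 in both, beside 8.64%, 20.9% and 3.95% of all genes. Msmo1, a sterol oxidase, varied 1.53-fold in heart with a peak at CT23.7, and its highest heart array was that of CT26, without which it varied 1.42-fold (adjusted p of the difference 1.44e-05). Lss, the lanosterol synthase, varied 1.36-fold in lung at CT12.2, and Srebf2, the factor that drives the pathway, peaked at CT6.73 in lung and CT0.250 in heart (adjusted p = 0.000532).

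Peaks at least 8 h apart, with a rhythm in both organs and a called difference, were found for 86 genes (0.431% of all genes), and for 43 at 10 h or more. Their waves were small, with median folds of 1.14 in lung and 1.19 in heart. In 55 of them lung peaked from CT6 to CT18 and heart from CT18 to CT6, and in 22 the reverse held. Just inside the limit of 8 h lay Trak1, with peaks 8.01 h apart, and just outside it Tuba8, with 7.96 h.

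Lpin1, an enzyme of triglyceride synthesis and a coactivator of fat oxidation, had the smallest p of these. It ran in lung from 8.73 at CT46 through a median of 8.97 to 9.38 at CT60 and in heart from 10.72 at CT56 through 10.96 to 11.24 at CT44. Lung was high late in the day and heart late in the night, on both days. The folds were 1.36 (1.27 to 1.46) and 1.24 (1.17 to 1.32), with peaks at CT10.7 and CT21.5, -10.9 h apart (-12.3 to -9.47; adjusted p = 4.64e-11). Pfkfb2, the heart's main switch of glycolysis, peaked at CT10.8 in lung with 1.13-fold and at CT21.3 in heart with 1.66-fold (adjusted p = 6.81e-10). Slc2a1, the glucose transporter GLUT1, ran in lung from 9.02 at CT54 through 9.26 to 9.47 at CT62 and in heart from 8.69 at CT24 through 9.01 to 9.27 at CT58. It went the other way round, with peaks at CT18.7 in lung and CT10.3 in heart, 8.47 h apart (6.67 to 10.3; adjusted p = 1.08e-06). Ppargc1a, the coactivator that raises mitochondrial content, peaked at CT3.46 in lung and CT17.6 in heart, 9.84 h apart (7.66 to 12.0; adjusted p = 1.24e-05), and Acot2, a mitochondrial thioesterase, at CT23.9 and CT8.66 (adjusted p = 0.00137). With endothelial markers as a covariate the heart calls of Lpin1 and Slc2a1 were lost (adjusted p = 0.110 and 0.108), while their differences stayed called (1.36e-05 and 0.00105).

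Vcam1, which holds leukocytes to the vessel wall, was the 1 opposite member of the adhesion list, and the matrix list had none. It ran in lung from 9.08 at CT38 through a median of 9.34 to 9.57 at CT48 and in heart from 7.98 at CT22 through 8.38 to 8.71 at CT38. The time of the lowest lung array was that of the highest heart array, and that lung array correlated least with the other lung arrays. The folds were 1.2 (1.12 to 1.29) and 1.28 (1.16 to 1.42), with peaks at CT23.8 and CT13.6, 10.2 h apart (7.98 to 12.3; adjusted p = 5.13e-06). Ccn1, a matrix protein induced by stretch, peaked at CT10.0 in lung and CT24.0 in heart with folds of 1.34 and 1.43 (adjusted p = 1.18e-05). Cxadr, a junction protein, peaked at CT9.67 and CT21.6 (adjusted p = 4.61e-07), Prkca, protein kinase C alpha, at CT14.9 and CT3.37 (6.46e-08), Mrc2, a collagen receptor, at CT1.71 and CT17.7 (7.02e-06) and Filip1, a filamin binder, at CT4.92 and CT18.6 (1.29e-07). Rasl11b and Slc35g2 also lay 8 h or more apart, with adjusted p of 0.000186 and 0.00125, and Slc35g2 lost its lung call without the CT26 arrays (0.0896).

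**Figure D5:**
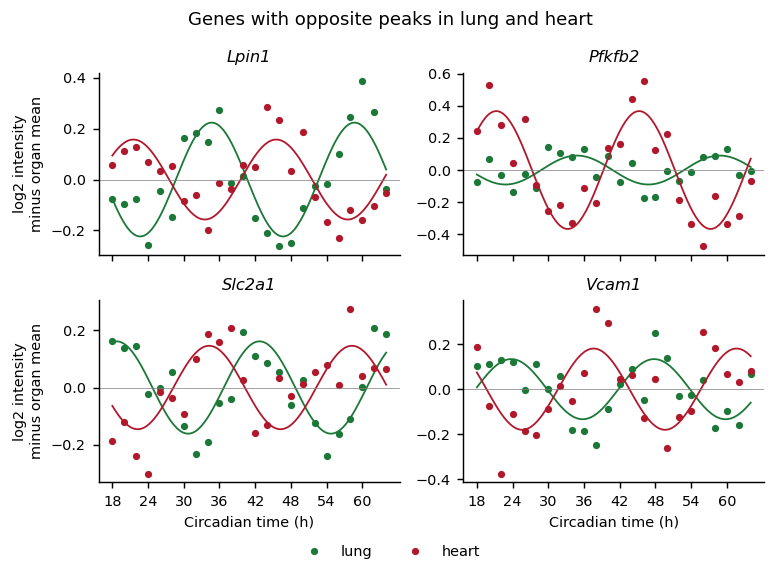
Log2 intensity minus the organ mean (vertical axes) against circadian time in hours (horizontal axes) for 4 genes with opposite peaks, with lung in green, heart in red, points for single arrays and lines for fitted waves. The lung and heart waves of Lpin1 mirror each other over both days with peaks at CT10.7 and CT21.5, and Pfkfb2, Slc2a1 and Vcam1 peak 8 h or more apart.

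Chaperones of the endoplasmic reticulum, which fold secreted proteins, were shared but shifted. Of 19 members, 14 were rhythmic in lung, 13 in heart and 12 in both, beside 20.9%, 8.64% and 3.95% of all genes. The lung peak was the earlier in all 12, beside 505 of the 788 genes called in both. Herpud1, a part of the disposal machinery, ran in lung from 10.49 at CT46 through a median of 10.81 to 11.15 at CT36 and in heart from 10.82 at CT28 through 11.40 to 11.65 at CT40. It varied 1.44-fold and 1.52-fold with peaks at CT10.6 and CT15.7, -5.07 h apart (-6.08 to -4.06; adjusted p = 7.95e-09). Creld2 peaked 4.08 h earlier in lung (-4.08 h, -5.64 to -2.51; adjusted p = 0.000591) and Sdf2l1 likewise earlier (-3.59 h, -5.38 to -1.80; adjusted p = 0.0191). Calr, a calcium-binding chaperone, showed no called difference (-1.61 h, -3.21 to -0.0107; adjusted p = 0.303). In the cytosol, 13 of 18 heat shock chaperones were rhythmic in lung and 3 in heart, 2 of them in both, beside 20.9%, 8.64% and 3.95% of all genes. The difference was called for 5, beside 11.4% of all genes. At an unadjusted p under 0.05, 16 passed in lung, 12 in heart and 11 in both, beside 32.3%, 20.6% and 10.4% of all genes. Hsp90aa1 varied 1.48-fold in lung and 1.45-fold in heart, and Hspa8 1.28-fold and 1.13-fold, with no called difference (adjusted p = 0.532 and 0.0808); both genes have near-identical copies that probes can share.

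Of 26 collagens and matrix genes, 19 were rhythmic in lung, 16 in heart and 14 in both, beside 20.9%, 8.64% and 3.95% of all genes. Spon2, a secreted matrix protein, ran in lung from 6.20 at CT58 through a median of 7.24 to 9.09 at CT50 and in heart from 6.05 at CT34 through 6.41 to 7.41 at CT50. Both organs were highest on the same array time, and the peaks at CT0.316 and CT0.263 lay 0.053 h apart (-0.969 to 1.07). The fold was 5.79 (4.90 to 6.85) in lung and 1.87 (1.63 to 2.15) in heart (adjusted p of the difference 1.03e-09). Eln, elastin, varied 2.24-fold and 1.33-fold near CT23.1 and CT0.0020 (adjusted p = 1.51e-06). Timp3, an inhibitor of matrix proteases, had the larger wave in heart, 1.74-fold against 1.31-fold (adjusted p = 1.03e-05). Loxl1, which crosslinks elastin, varied 1.59-fold and 1.30-fold (adjusted p = 0.0445), a call lost without the CT26 arrays (0.0592).

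Most targets of glucocorticoids were rhythmic in both organs. Of 19 members, 18 were rhythmic in lung, 13 in heart and 12 in both, beside 20.9%, 8.64% and 3.95% of all genes. The difference was called for 3 of the 12, beside 391 of the 788 genes called in both. Fkbp5, a chaperone of the glucocorticoid receptor, ran in lung from 6.98 at CT24 through a median of 7.78 to 9.02 at CT60 and in heart from 6.83 at CT28 through 7.72 to 8.29 at CT60. It varied 2.00-fold and 1.59-fold with peaks at CT11.9 and CT14.5, a difference that was not called (adjusted p = 0.0823). Of 3 measured genes of cold-inducible RNA binding, 3 were rhythmic in lung and 2 in heart, beside the same shares of all genes. Cirbp varied 1.54-fold and 1.63-fold at CT5.80 and CT8.85 (adjusted p of the difference 0.0724).

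Of 26 antioxidant and xenobiotic genes, 19 were rhythmic in lung and 6 in heart, all 6 in both, beside 20.9%, 8.64% and 3.95% of all genes. Fmo2, a flavin monooxygenase of lung, ran in lung from 11.95 at CT28 through a median of 12.26 to 12.45 at CT64 and in heart from 8.38 at CT28 through 9.34 to 10.19 at CT62. The lowest array was that of CT28 in both organs, and the fold was 1.32 (1.28 to 1.36) in lung and 2.70 (2.35 to 3.10) in heart, with peaks at CT15.2 and CT14.9 (adjusted p of the difference 1.63e-09). Alas1, the first enzyme of heme synthesis, varied 1.47-fold in lung with a peak at CT10.7. In heart it varied 1.22-fold (1.07 to 1.39) with a fitted peak at CT21.25. That heart wave was not called, although its unadjusted p was 0.0155 in limma's F test. The fitted peaks lay -10.6 h apart (-12.8 to -8.35), and the adjusted p of the difference was 5.34e-07. Of 13 cytosolic ribosomal proteins 6 were rhythmic in lung and none in heart by limma (2 at an unadjusted p under 0.05), beside the same shares. At the unadjusted p, 20.6% of all genes passed in heart. Folds in lung and heart were 1.16 and 1.05 for Rps14 and 1.12 and 1.05 for Rps3. Of 20 cell cycle genes, limma called 5 in lung, 2 in heart and none in both (1 in both at an unadjusted p under 0.05), near the 20.9% and 8.64% of all genes. Over all genes 3.95% were called in both, and 10.4% passed in both at the unadjusted p.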

How the data were processed

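The authors' deposited table holds 1 intensity per probe set and array on a linear scale, made with Affymetrix Expression Console and GCRMA per the submitters' processing notes, which give neither versions nor the order of steps. The SD of log2 values within an array was 1.96 to 2.04 in lung and 1.99 to 2.05 in heart. These ranges overlap and do not show whether normalization was done within each tissue. The deposited intensities, from 6.9 to 45307.8 with none at 0, were taken to log2 with no pseudocount. Of 35556 probe sets, 21789 carry 1 gene symbol, 1621 several and 12146 none; each of 19938 genes was represented by its brightest probe set over 288 arrays, with no filter on low values.

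Waves were fitted with limma 3.58.1 in R 4.3.3 (moderated F test, trend on mean level, Benjamini-Hochberg over all genes, called at adjusted p under 0.05), after the code was tested on simulated data. Intervals are 95%, by the delta method, and a fold interval stops at 1.00. P-values measure the scatter of single pools, and the 24 arrays of an organ limit precision.

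The comparison and the gene lists (575 of 627 members measured) were chosen with earlier results of these data known. Named genes are the clock lists, the largest waves shared, particular to an organ or opposite (called, bright, peaks of both days within 4 h), and up to 4 members per list; all 9 shared endothelial members were named. The labels do not say that organs of the same time share mice, so time was no block: of 24 pairs of arrays of the same time, 13 correlated above 0.1, with a median of 0.127.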

Additional observations from a re-analysis of the deposited data

Results flagged for a closer look

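Each gene here had a different rhythm in lung and in heart by the test of the difference itself, and the value after each gene is limma's adjusted p of that difference. No explanation was tested for any of them.

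Among clock and clock output genes these were Nr1d2 (5.6e-08), Nr1d1 (7.85e-07), Bhlhe41 (2.1e-05), Ciart (2.99e-05), Tef (0.000413), Hlf (0.000604), Leo1 (0.00119), Clock (0.00136), Dbp (0.0023), Pdzrn3 (0.0023), Nampt (0.025), Arntl (0.0321), Bhlhe40 (0.0441) and Wee1 (0.0472). Among genes with a shared wave elsewhere they were Slc46a3 (0.00101), Ppp1r3c (0.00182) and Tspan4 (0.0221).

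In the vessel wall they were Vegfa (3.28e-08), Pik3r1 (8.39e-09), Adm (1.13e-07), Kdr (4.61e-07), Cldn5 (1.07e-06), Pecam1 (2.35e-05), Mmrn2 (9.7e-05), Emcn (0.000217), Sox17 (0.00055), Tie1 (0.00125), Thbd (0.00335), Arhgef15 (0.00337), Gpihbp1 (0.00356), Rhoj (0.00836), Flt1 (0.0135), Aplnr (0.0136), Erg (0.0201), Egfl7 (0.033), F3 (0.0341), Gja5 (0.0385) and Eng (0.0455).

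With the larger wave in lung they were Aoc1 (7.85e-13), Acoxl (1.09e-11), Scn3a (1.09e-11), Gpr155 (3.75e-10), Ahcyl2 (2.02e-09), Plekha6 (2.32e-08), St6galnac3 (2.7e-08), Akr1c14 (8.72e-08), Rac3 (1.99e-07), Igfbp3 (2.5e-07), Alas1 (5.34e-07), Dgat2 (9.35e-07), Eln (1.51e-06), Spon2 (1.03e-09), Slc26a9 (3.54e-06), Cxcl15 (9.48e-06), Scnn1a (1.44e-05), Glipr2 (3.94e-05), Csrp3 (0.000123), Lss (0.000183), Abca3 (0.000365), Eya1 (0.000669), Elovl1 (0.00152), Pln (0.00287), Rps14 (0.00321), Tnnt2 (0.00854), Tnni3 (0.0142), Rps3 (0.0189) and Loxl1 (0.0445).

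With the larger wave in heart they were Adam19 (3.87e-13), Mid1ip1 (1.09e-11), Tcap (2.77e-11), Rcan1 (1.21e-10), Fmo2 (1.63e-09), Nup62 (1.96e-08), Fabp7 (2.71e-07), Epha4 (2.89e-07), Aqp1 (6.18e-07), Nppb (2.12e-06), Timp3 (1.03e-05), Scd4 (2.13e-05), Ier3 (3.35e-05), Ucp3 (4.58e-05), Msmo1 (0.000104), Kcnh2 (0.000129), Inmt (0.00214) and Cebpb (0.00263). Mainly by hour they were Herpud1 (7.95e-09), Srebf2 (0.000532), Creld2 (0.000591) and Sdf2l1 (0.0191). Alas1, with the larger wave in lung, also had fitted peaks -10.6 h apart.

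With opposite peaks they were Lpin1 (4.64e-11), Pfkfb2 (6.81e-10), Prkca (6.46e-08), Filip1 (1.29e-07), Cxadr (4.61e-07), Slc2a1 (1.08e-06), Vcam1 (5.13e-06), Mrc2 (7.02e-06), Ccn1 (1.18e-05), Ppargc1a (1.24e-05), Rasl11b (0.000186), Slc35g2 (0.00125) and Acot2 (0.00137).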

How the results depend on the processing

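Counts of calls stayed within 1.5 times the reported ones in 6 settings. These were quantile normalization within each organ, no CT26 arrays, a straight line over time as a covariate, the mean of all probe sets, genes above the median, and no CT40 arrays. The last setting and the muscle marker covariates were chosen after seeing the data. Array weights entered only the test of the difference, which was then called for 2213 genes, so the counts within each organ could not change. With rank-based scores, heart had 1019 rhythmic genes and both organs 492. These scores give the values of every gene a like spread within each organ by construction. With them the difference was called for 894 genes and for 99 of the shared ones. Lung had 521 particular genes and heart 113, and 50 had opposite peaks. With the endothelial marker mean as a covariate, 2682 genes were rhythmic in lung, 867 differed, 119 of them shared, 300 were particular to lung and 338 to heart, and 34 were opposite. In 1 fit to all 288 arrays, whose scatter is shared with 10 other tissues, 1836 were rhythmic in lung, 372 in both, 969 differed, 118 of them shared, 419 were particular to lung and 342 to heart, and 21 were opposite. Muscle marker covariates left 55 opposite genes, and limits of 10 h and 6 h gave 43 and 143. The cause was not tested for the rank-based scores, the covariates and the joint fit. The wave of Tie1 in heart turned with the endothelial covariate (1.087-fold, adjusted p = 0.571), and the difference of Fmo2 turned with rank scores (peak difference 0.2545 h, adjusted p = 0.983).

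Circadian time served as a replicate block in 1 alternative, although the labels do not pair the organs and 3 of the 24 lung arrays correlated best with the heart array of their own time. With this block the difference was called for 2091 genes, 393 of them shared, 1004 were particular to lung and 475 to heart, and 86 were opposite. The fits of the first 24 h and of the second used 12 arrays each and called 13 and 12 of the 32 endothelial genes in lung, 5 and 10 in heart, 3 and 3 in both, and 4 and 12 as different.

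One pool per time gives no check of a single array. The scatter around the waves was larger in heart, and an intensity near the low end does not show that a gene is silent.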
